A study of Mus musculus with 24 samples.

Results

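In leukaemic erythroid cells of the mouse, 222 H3K27ac peaks were found after doxycycline at places where the untreated cultures had neither an H3K27ac nor an H3K4me1 peak. They were 222 of the 23341 H3K27ac peaks of the treated list on assembled chromosomes (0.951%, exact 95% interval 0.831 to 1.08). The peaks were chosen by measured values, namely the absence of any overlap, down to 1 bp, with the untreated H3K27ac list and the untreated H3K4me1 list. Their presence in treated cultures and their absence from both untreated lists are therefore the selection and not a result. They are called here acetylation gained without prior H3K4me1, where "prior" stands for the untreated list and not for an earlier sample of the treated cultures.

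The cells are the TgSpi1 erythroleukaemic line #763, taken from bone marrow leukaemia of mice with a Spi1 transgene that overexpress SPI1, and they carry a hairpin RNA against Spi1 that doxycycline induces. Treated cultures had 48 h of doxycycline and untreated cultures had none, and both were kept in medium with erythropoietin. The sources used here give neither the promoter of the transgene nor whether #763 is 1 clone. Since doxycycline was given to no cells that lack the hairpin, as far as the groups are labelled, lower SPI1 cannot be told apart from the drug itself or from the hairpin. ChIP-seq gave 4 peak lists, 1 for each mark and condition. Each H3K27ac list stands for 2 replicates together and each H3K4me1 list for 1, so no value below has a replicate error and no difference between conditions was tested. The read depth behind the lists is unknown, and all intervals cover counting error over peaks only.

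H3K27ac is an acetyl mark on histone tails at active promoters and enhancers. H3K4me1 marks enhancers whether or not they are active, and in the usual order of events it is laid down before the acetylation, so that an enhancer with H3K4me1 alone is called primed. SPI1, also called PU.1, is a transcription factor with an ETS domain that myeloid and B cells need and that holds back red cell maturation when it is overexpressed in erythroid precursors.

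Few of the peaks lay over an annotated start. Sequences of such starts are shown in place of those of the peaks, since no genome sequence was used, and most of the acetylation lay elsewhere. Among 32851 RefSeq promoter windows of GRCm38.p6, each with 250 bases before and 50 after a start, 6 were touched by 5 of the 222 peaks, and 3 windows on 3 peaks lay wholly inside. The windows of Nr2f1 (chr13:78198824-78199123, minus strand), which encodes an orphan nuclear receptor of brain development, of Mthfs (chr9:89211134-89211433, plus strand), an enzyme of folate metabolism, and of the long non-coding RNA Gm35860 (chr9:20759077-20759376, minus strand) read as follows, 5′ to 3′, with each CG pair in capitals.
Nr2f1: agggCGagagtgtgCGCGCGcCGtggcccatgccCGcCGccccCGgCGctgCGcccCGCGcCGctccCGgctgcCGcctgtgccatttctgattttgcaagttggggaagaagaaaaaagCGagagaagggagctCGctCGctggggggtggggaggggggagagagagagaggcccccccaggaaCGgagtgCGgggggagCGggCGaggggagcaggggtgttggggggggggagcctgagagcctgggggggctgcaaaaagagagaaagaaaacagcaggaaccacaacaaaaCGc
Mthfs: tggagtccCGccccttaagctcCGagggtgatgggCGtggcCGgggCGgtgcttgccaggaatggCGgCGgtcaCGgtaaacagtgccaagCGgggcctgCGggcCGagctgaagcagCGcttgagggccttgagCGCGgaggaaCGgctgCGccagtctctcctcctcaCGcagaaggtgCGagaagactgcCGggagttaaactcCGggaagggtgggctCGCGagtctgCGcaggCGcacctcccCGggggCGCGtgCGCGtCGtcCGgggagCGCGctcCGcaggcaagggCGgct
Gm35860: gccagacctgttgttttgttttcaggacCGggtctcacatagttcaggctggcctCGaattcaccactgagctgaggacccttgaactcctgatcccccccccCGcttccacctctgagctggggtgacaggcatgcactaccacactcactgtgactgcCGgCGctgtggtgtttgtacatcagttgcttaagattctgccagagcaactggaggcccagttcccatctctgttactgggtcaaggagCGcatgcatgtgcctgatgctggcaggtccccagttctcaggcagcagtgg

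The Mthfs window was the richest in CG pairs, with 35 of them and 70.7% G or C, and 93.0% of all windows had fewer pairs. The Nr2f1 window had 23 pairs and 68.0% G or C. Gm35860 had 6 pairs and 57.0%, against a median of 7 pairs and 52.7% over all windows and of 22 pairs and 62.0% over the 10938 windows under any treated H3K27ac peak. None of the 3 held the letters AGAGGAAG (an ETS core), AGATAA (found in the binding sequence of GATA1) or CCACACCC (found in that of KLF1) on either strand. Those letters were present in 4.55%, 11.2% and 3.56% of all windows, so windows without them are the usual case. The windows of H4c18, a histone H4 gene, and of the non-coding Gm51800 were touched over only 4 bp and 3 bp, and a second Mthfs window over 141 bp. The H4c18 window held the KLF letters and this second Mthfs window the GATA letters. H4 genes are near-identical copies, between which reads may have been shared.

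The treated H3K4me1 list played no part in the choice of the peaks. It covered 156 of the 222 by at least 1 bp (70.3%, 63.8 to 76.2), 137 over at least 50% of their width (61.7%) and 111 over all of it. At most of these places both marks were thus listed with doxycycline and neither without it. The other 66 peaks (29.7%, 23.8 to 36.2) had an H3K27ac peak alone. Absence from a list means only that no peak was called there, so it does not show that a mark was new. The share of 70.3% was far below that of the treated H3K27ac list as a whole, in which 99.5% of peaks overlapped treated H3K4me1. It was likewise below the 99.7% (99.4 to 99.8) of the 3761 H3K27ac peaks gained at prior H3K4me1 and the 99.8% of the 19358 peaks shared with untreated cultures. However, the 222 were chosen for the absence of untreated H3K4me1 and the 3761 for its presence. The treated and untreated H3K4me1 lists are not independent of each other. The lower share in the 222 is therefore tied to the choice and is given as a description. The share was no lower in narrow peaks, being 73.7% of 57 peaks under 200 bp, 63.7% of 91 peaks of 200 to 499 bp and 75.7% of 74 wider peaks. In the peaks gained at prior H3K4me1 these shares were 99.7%, 99.4% and 99.8%.

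The mirror image of the 222 peaks gives the level that such a rule finds in the other direction. In the untreated list, 284 of 28902 H3K27ac peaks (0.983%, 0.872 to 1.10) had no overlap with treated H3K27ac or treated H3K4me1, and the interval overlaps that of the 222. Of these 284 lost peaks, 201 had H3K4me1 of their own condition (70.8%, 65.1 to 76.0), again much as in the gained peaks. Both classes had a median width of 353 bp (95% interval of the median 303 to 403 for the gained and 303 to 353 for the lost). Their widths were spread differently all the same, with quartiles of 153 and 553 bp for the gained and 203 and 403 bp for the lost peaks. Of the gained peaks 74 of 222 had 500 bp or more, and of the lost peaks 49 of 284. In their share of the list and in the share with H3K4me1 of their own condition the intervals of the gained and the lost peaks overlapped.

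The 222 peaks were narrow. This is tied to their choice, since a wider peak touches an untreated peak more easily and is then left out. The widths are given as a description. Their median of 353 bp (quartiles 153 and 553, range 3 to 1553) compares with 603 bp for peaks gained at prior H3K4me1 and 1603 bp for shared peaks. There were 57 under 200 bp, 19 of them listed with 3 bp and 17 with 53 bp, while 5 reached 1000 bp. All 222 together covered 83866 bp. A width of 3 bp is below the size of a nucleosome, and the way in which the authors combined the replicates into such stretches is not known here.

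Most of the peaks sat close to H3K4me1 of the untreated list. That list took part in the choice and no baseline is set beside these gaps, so they are given as a description. The gap to the nearest untreated H3K4me1 peak had a median of 447 bp, and 165 peaks (74.3%, 68.1 to 79.9) lay within 1 kb of one. For 147 peaks there was an untreated H3K4me1 peak within 5 kb on both sides. Because list positions move in steps of 50 bp, the smallest gap was 47 bp, found at 22 peaks, of which 21 had treated H3K4me1. On the other side of the threshold, 93 treated-only H3K27ac peaks overlapped untreated H3K4me1 by just 3 bp, and 92 of them had treated H3K4me1. Their median width was 3 bp, so for many of them these 3 bp were the whole peak. The 22 peaks with the smallest gap had a median width of 203 bp. When a peak had to have no untreated peak within 1 kb, 53 of the 222 remained (0.227% of the treated list), and 15 of those 53 (28.3%) overlapped treated H3K4me1. When peaks within 1 kb of each other were joined in each list separately, 102 were found, 48.0% of them with treated H3K4me1.

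**Figure D1:**
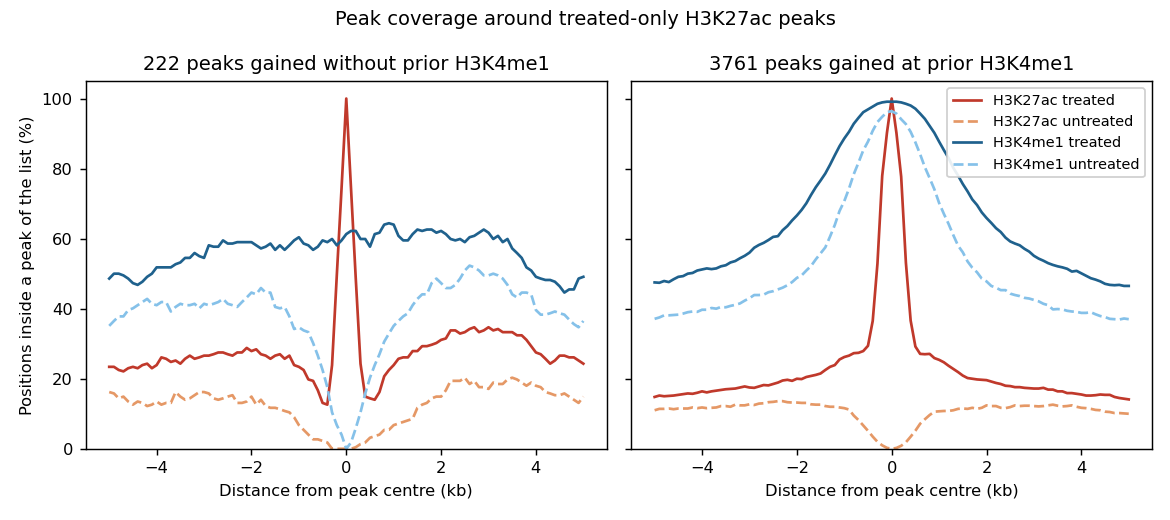
Share of peaks (%, vertical axis) whose surrounding positions lie inside a peak of each of the 4 lists, against distance from the peak centre (kb), for the 222 H3K27ac peaks gained without prior H3K4me1 (left) and the 3761 gained at prior H3K4me1 (right); solid lines are treated lists and dashed lines untreated ones. At the centre of the 222 peaks 61.3% lay under treated H3K4me1 and 0% under untreated H3K4me1, as the choice of the peaks fixes, against 99.1% and 96.4% for peaks gained at prior H3K4me1.

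The plot of coverage by distance shows treated H3K4me1 running level across the 222 peaks, with 60.4% of positions covered 1 kb before the centre, 61.3% at the centre and 64.0% 1 kb after it. Untreated H3K4me1 covered 34.7% and 35.1% at those flanks. Around the peaks gained at prior H3K4me1, the untreated maximum at the centre is fixed by their choice, as is the untreated minimum at the 222. Beside that centre they had 88.6% and 87.7% under treated and 70.7% and 70.2% under untreated H3K4me1 at the same flanks.

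Placed by their treated H3K4me1, the peaks fell into 4 kinds. In 41 of them (18.5%, 13.6 to 24.2) a single treated H3K4me1 peak ran over the acetylated stretch and joined untreated H3K4me1 peaks on either side, so that a gap in H3K4me1 was closed. In 100 (45.0%, 38.4 to 51.8) the treated H3K4me1 peak reached over from one side only. In 15 (6.76%) it was separate from any untreated H3K4me1, and 66 had none. The peaks that closed a gap lay a median of 197 bp from untreated H3K4me1 and those that extended it 297 bp, against 2097 bp for the separate ones and 1297 bp for those with no treated H3K4me1. The treated H3K4me1 peaks that closed a gap were very long, with a median of 11303 bp, those that extended from one side had 5253 bp, and the separate ones 603 bp. All 101388 treated H3K4me1 peaks had a median of 1153 bp, and the list covered 195 Mb. For the 119362 untreated H3K4me1 peaks these values were 903 bp and 184 Mb, so the treated list as a whole held fewer and longer peaks. How far the joined and extended stretches go with this difference between the lists was not tested.

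The authors give each H3K4me1 peak a score, which ranks peaks within a list and whose scale is not stated. By that score the treated H3K4me1 peaks over the acetylated stretches stood at a median percentile of 94.6, and 96 of 156 (61.5%) were in the top 10%. The percentile was 98.7 where a gap was closed, 94.1 where H3K4me1 extended from one side and 23.3 at the 15 separate ones. Among these H3K4me1 peaks the score mostly rose with length, for example from 3.39 at 503 bp to 40.4 at 4503 bp and 213 at 23653 bp. The percentiles therefore largely repeat the lengths given above and are not a separate trait. Peaks gained at prior H3K4me1 lay under treated H3K4me1 with a median percentile of 94.5 and 68.4% in the top 10%, and shared peaks at 91.9 and 55.9%. At the 156 peaks that had it, treated H3K4me1 was thus ranked about as high as over other acetylated places, though not at the 15 separate ones. The other 66 of the 222 peaks had none to rank.

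**Figure D2:**
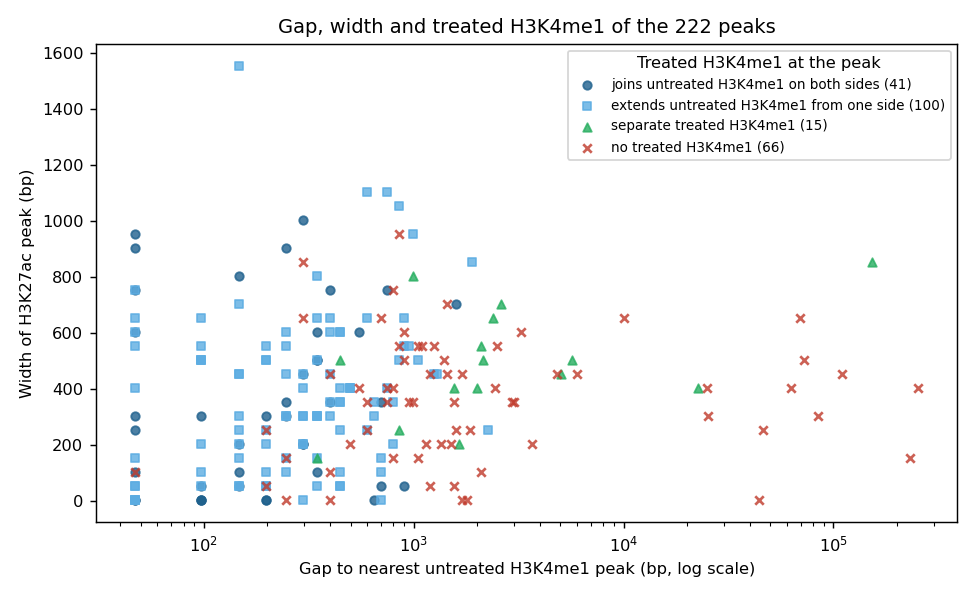
Width of each of the 222 H3K27ac peaks (bp) against its gap to the nearest untreated H3K4me1 peak (bp, log scale), with colour and marker for its treated H3K4me1. Peaks in which treated H3K4me1 joined or extended untreated H3K4me1 sit at the left, up to 2247 bp away, while 11 of the 13 peaks more than 20 kb away have no treated H3K4me1.

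Treated H3K4me1 covered bases of the peaks more often than bases in general as close to untreated H3K4me1. Since 99.5% of all treated H3K27ac peaks overlapped treated H3K4me1, any set of acetylated bases would probably stand above that baseline. No other acetylated bases at these distances were set beside the 222 peaks, so whether the difference is particular to them is not known. Of the bases of the 222 peaks at 1 to 200 bp from untreated H3K4me1, 91.1% lay under treated H3K4me1, against 36.3% of all bases at that distance. At 201 to 500 bp the shares were 82.5% and 18.2%, and at 501 to 1000 bp they were 69.7% and 7.38%. At 1001 to 2000 bp the shares were 42.3% and 3.42%, and at 2001 to 5000 bp 42.1% and 1.82%. In each of the 5 distance bins the acetylated bases were covered more often, and the coverage of both was lower the farther the bin, with little change over the last 2 bins for the peaks. Leaving all treated H3K27ac out of the bases at that distance gave 36.0% in the nearest bin and 1.82% in the farthest. Bases of 1 peak are not independent of each other, so these shares carry no interval.

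**Figure D3:**
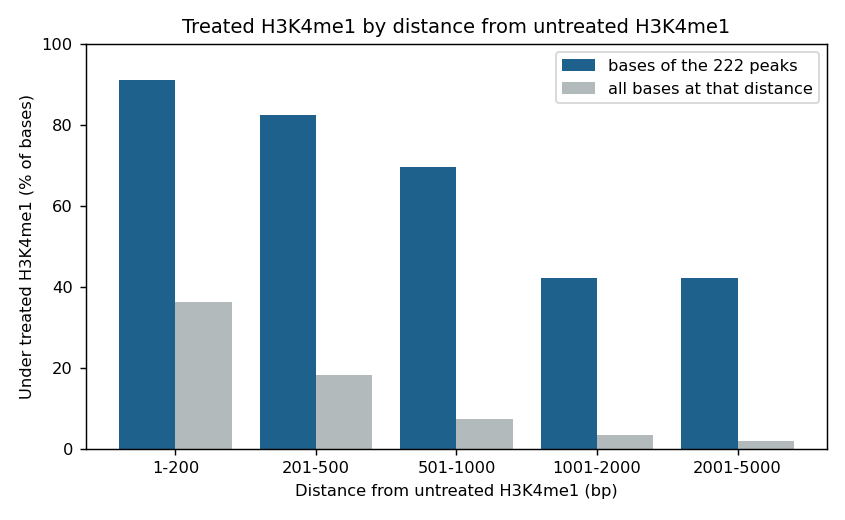
Share of bases under treated H3K4me1 (%, from 0 to 100) in 5 bins of distance from untreated H3K4me1 (bp), for bases of the 222 H3K27ac peaks and for all bases at the same distance. The share is 91.1% against 36.3% in the nearest bin and 42.1% against 1.82% in the farthest.

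The surroundings differed between conditions as well. In the 5 kb on either side of a peak centre, with the peak itself left out, treated H3K4me1 covered a median of 5692.5 bp and untreated H3K4me1 3856.5 bp. It was longer in the treated list at 192 of the 222 peaks (86.5%, 81.3 to 90.7), shorter at 16 and equal at 14, of which 13 had none in either list. The ratio of the means, treated over untreated, was 1.44. Peaks gained at prior H3K4me1 had 5999 bp treated and 4530 bp untreated, with a longer treated length at 86.7% (85.6 to 87.7) and a ratio of 1.28. Shared peaks had 4555 bp and 4202 bp, longer at 62.5%, with a ratio of 1.08. Around the 284 lost peaks the treated length was 1979.5 bp and the untreated one 3894.5 bp, and it was shorter in the treated list at 80.6% of them. The untreated H3K4me1 list took part in the choice of both gained classes and the treated one in that of the lost peaks. These lengths and their signs are therefore not independent of the choice and are given as a description.

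Other H3K27ac peaks nearby moved the same way. Within the same 5 kb, and again without the peak itself, treated H3K27ac covered a median of 2553 bp and untreated H3K27ac 866 bp. It was longer in the treated list at 158 peaks, shorter at 19, and absent from both lists at 45. Peaks gained at prior H3K4me1 went the same way, with medians of 953 bp treated and 303 bp untreated and a longer treated length at 55.9%. Shared peaks (0 bp and 500 bp) and lost peaks (0 bp and 453 bp) went the other way. A treated H3K27ac peak that was not itself chosen lay within 1 kb of 108 of the 222 (48.6%, 41.9 to 55.4). This held for 100 of the 156 peaks with treated H3K4me1 (64.1%) but for 8 of the 66 without it (12.1%). The nearest untreated H3K27ac was farther away, at a median of 2372 bp. These lengths come from the lists that chose the peaks and are given as a description.

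Some of the peaks lay beside genes of red cells, which the labels name as the cell type, and others beside genes of other lists. In the H3K27ac lists themselves, 10027 treated (45.8%) and 10181 untreated (46.5%) of all 21887 protein-coding genes had a peak within 1 kb of a gene end. By that count 42 treated and 36 untreated of the 49 genes of the erythroid membrane, globin and haem list had one, as did 14 treated and 13 untreated of 15 erythroid transcription factor genes. Lists not tied to a cell type were as high, with 26 treated and 26 untreated of 28 housekeeping genes, 36 and 37 of 40 cell cycle genes and 35 and 37 of 40 genes of erythropoietin and cytokine signalling. For markers of other cells the numbers were 13 treated and 15 untreated of 50 myeloid genes, 11 and 9 of 18 megakaryocyte and platelet genes, 4 and 5 of 17 B cell genes, 2 and 3 of 17 T cell genes and 0 and 0 of 19 stromal and endothelial genes. Of the protein-coding genes, 348 (1.59%) had 1 of the 222 peaks in the body or within 50 kb. Of 493 genes in 18 lists chosen for this tissue, with results of these data already known, 15 had one (3.04%). In the erythroid membrane, globin and haem list these were 5 of 49 (10.2%), Hba-a1, Hba-a2, Hba-x, Uros and Erfe, of which the 3 globin genes share peaks and so are 1 place. The epithelial and gut list had about the same share, 2 of 20 genes, Muc5ac and Muc5b, which share 1 peak. In the erythroid transcription factor list Sox6 was the 1 gene of 15 (6.67%). With 10 kb in place of 50 kb, 9 of the 493 genes had one (1.83%), against 151 of all protein-coding genes (0.690%).

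None of 50 myeloid genes, of 18 megakaryocyte and platelet genes, of 17 B cell genes, of 17 T cell genes or of 19 stromal and endothelial genes had 1 of the peaks within 50 kb. The same count of 0 was found for 25 genes of the interferon response, 25 genes of Polycomb complexes and 20 liver genes. At the background of 1.59%, fewer than 1 gene would be counted in any of these lists, so a count of 0 is no result about them. The other lists had 1 gene each, namely Lyl1 of 27 stem and progenitor genes, Bbc3 of 40 apoptosis genes, Btg2 of 40 cell cycle genes, Dusp8 of 40 cytokine signalling genes, Sin3b of 25 co-repressor genes, Hprt of 28 housekeeping genes and, by a peak of 3 bp, Syt1 of 25 neuronal genes.

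The stretch with the most of the peaks, 4 of them, lay beside the alpha-globin genes. Nprl3, which encodes a subunit of a complex that restrains mTORC1, is known to hold enhancers of the neighbouring alpha-globin genes in its introns. Its body (chromosome 11, 32231963 to 32267707) held 3 of the 222 peaks, at 32238699 to 32239151 (453 bp), 32239399 to 32239901 (503 bp) and 32258349 to 32259451 (1103 bp). The third was wholly inside a treated H3K4me1 peak of 19903 bp, which took in 4 untreated H3K4me1 peaks and stood at the 99.8 percentile by score. Another of the 222, of 653 bp, lay in Il9r, the interleukin-9 receptor gene, so that 4 fell within 63.4 kb. Hba-x, the embryonic zeta globin, lay 17.1 kb from the widest of them, Hba-a1 24.2 kb and Hba-a2 37.0 kb from it. Within 40 kb on either side of that peak, treated H3K27ac had 15 peaks over 38845 bp and untreated H3K27ac 10 peaks over 8830 bp. Treated H3K4me1 had 12 peaks over 60785 bp and untreated H3K4me1 17 peaks over 36401 bp. The treated list thus held fewer but longer peaks there, as it also did as a whole. Hba-a1 and Hba-a2 are near-identical copies, between which reads may have been shared.

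**Figure D4:**
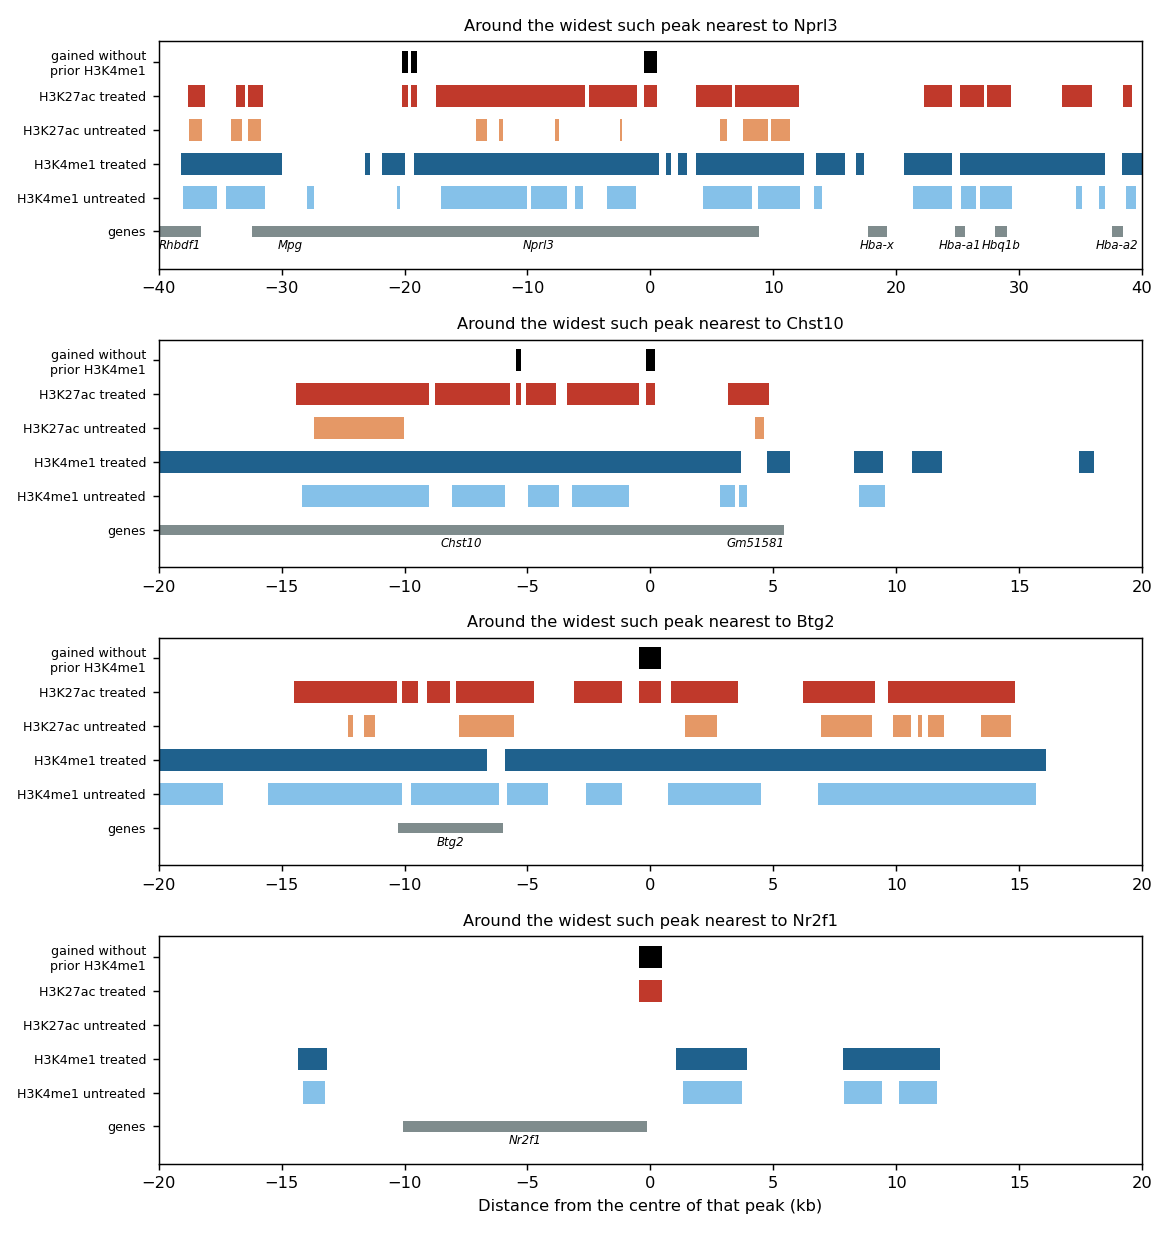
Peaks of the 4 lists and genes around the widest of the 222 peaks at Nprl3, Chst10, Btg2 and Nr2f1, with distance from that peak's centre in kb on the horizontal axis and 1 row for each list. At Nprl3, Chst10 and Btg2 the black peaks lie in gaps of untreated H3K4me1 that long treated H3K4me1 peaks cover at least in part, while at Nr2f1 the 1 acetylated stretch of 953 bp has no H3K4me1 in either list.

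Long joined stretches were also found at other genes. In Chst10, a sulfotransferase gene, 2 of the peaks (203 bp and 353 bp) lay under a treated H3K4me1 peak of 23653 bp, the highest by score over any of the 222, which took in 6 untreated ones. Within 20 kb there, treated H3K27ac covered 14821 bp and untreated H3K27ac 4006 bp, and treated H3K4me1 27665 bp and untreated H3K4me1 12821 bp. Beside Btg2, an anti-proliferative gene, a peak of 903 bp lay 5.54 kb from the gene under a treated H3K4me1 peak of 22003 bp that joined 4 untreated ones. Within 20 kb of it, treated H3K27ac covered 22677 bp in 9 peaks and untreated H3K27ac 9027 bp in 9 peaks. Near Cpeb4, which encodes an mRNA-binding protein with a role in terminal erythroid maturation, a peak of 1003 bp lay under a treated H3K4me1 peak of 21053 bp that joined 6 untreated ones. Near Minpp1, an inositol phosphatase gene, a peak of 103 bp lay under 19303 bp that joined 4.

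Inside Sox6, a repressor of embryonic globin, there were 2 of the peaks. That of 203 bp lay under a treated H3K4me1 peak of 19103 bp joining 4 untreated ones, and within 5 kb of it treated H3K4me1 covered 10001 bp, the whole window, against 4759 bp untreated. That of 453 bp was covered by treated H3K4me1 over 153 bp, with 7907 bp treated and 4206 bp untreated around it. In Uros, an enzyme of haem synthesis, a peak of 753 bp was wholly under treated H3K4me1. Around it and including it, treated H3K27ac covered 6833 bp and untreated H3K27ac 3106 bp, and treated H3K4me1 8880 bp and untreated H3K4me1 5383 bp. Erfe, the hormone through which erythroid cells act on iron supply, had 2 of the peaks at 4.38 kb and 7.33 kb, 1 wholly under treated H3K4me1 and 1 with none. Both of these peaks lay inside the body of another gene, Ilkap.

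The widest of all 222, with 1553 bp, lay far from genes, 244 kb from Pfkp, a phosphofructokinase gene, and extended H3K4me1 from one side. The other wide ones were nearest to Trim15 (1103 bp), Gbp6 (1053 bp), Vmn1r41 and Sh3tc2 (953 bp each) and Sgk3 (903 bp). At Sh3tc2, a gene of myelinating cells, treated H3K4me1 covered the whole 10001 bp and untreated H3K4me1 3736 bp, and the nearest untreated H3K27ac lay 157897 bp away. At Vmn1r41, a vomeronasal receptor gene, the nearest untreated H3K27ac lay 103747 bp away. Treated H3K4me1 covered 8683 bp and untreated H3K4me1 3633 bp around it. Nearness to a gene is a position and does not tie a peak to that gene.

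Peaks without any treated H3K4me1 were the more isolated ones. The widest of the 66 was that over the Nr2f1 start, with 953 bp. It was the only H3K27ac within 20 kb in the treated list, where the untreated list had none, and its nearest untreated H3K27ac lay 489047 bp away. H3K4me1 covered 8009 bp treated and 6412 bp untreated in that window, the nearest untreated peak 847 bp from the acetylated stretch. The peak over Mthfs, of 403 bp, was the farthest of the 222 from untreated H3K4me1, at 253697 bp. No peak of the other 3 lists lay within 5 kb of its centre. Of the 13 peaks more than 20 kb from untreated H3K4me1, 11 had no treated H3K4me1, and 12 were more than 100 kb from untreated H3K27ac. An exception was the peak of 853 bp in Fpgt and Lrriq3, 152647 bp from untreated H3K4me1. Treated H3K4me1 that was separate from any untreated H3K4me1 covered 456 bp of it.

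Gene starts and ends were rare among the peaks. Of the 222, 16 (7.21%, 4.18 to 11.4) lay within 1 kb of an annotated end of a protein-coding gene, where 40.8% of all treated H3K27ac peaks did. The share was 8.69% (7.81 to 9.64) for peaks gained at prior H3K4me1 and 6.69% (4.08 to 10.3) for lost peaks, both within the interval of the 222, and 47.4% (46.7 to 48.1) for shared peaks. Gene bodies held 109 of the 222 (49.1%, 42.3 to 55.9), 61.8% (60.3 to 63.4) of peaks gained at prior H3K4me1, 52.8% of lost peaks and 78.2% of shared ones. The widest near gene ends, besides those already named, were at H4c18 (853 bp), Numbl (803 bp), an adaptor that acts on Notch, Plch2 (653 bp), a phospholipase C, Recql5 and Smim6 (553 bp) and Atp13a2 (503 bp), a lysosomal transporter.

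The peaks were mostly scattered. With peaks less than 50 kb apart taken as 1 stretch, 168 of the 222 stood alone and 54 fell into 25 stretches. Besides the stretch at Nprl3 and Il9r, 2 stretches held 3 peaks, in Col5a1, a collagen gene (1 of 3 with treated H3K4me1), and in Fig4, a phosphoinositide phosphatase gene (3 of 3). Cacna1c, a calcium channel gene of great length, also held 3 in its body, 1 of them with treated H3K4me1. The body of 92 protein-coding genes held at least 1.

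Chromosome X had the highest share. On X, 26 of 818 treated H3K27ac peaks were gained without prior H3K4me1 (3.18%, 2.09 to 4.62), against 196 of 22523 on the other chromosomes (0.870%, 0.753 to 1.00). Chromosome 1 followed with 29 of 1379 (2.10%, 1.41 to 3.01), and chromosome 15 had the lowest share of those with over 100 peaks, 3 of 985 (0.305%, 0.0629 to 0.887). The lost peaks were likewise frequent on X, with 46 of 1027 (4.48%, 3.30 to 5.93) against 0.854% elsewhere, but not on chromosome 1, with 9 of 1706 (0.528%, 0.242 to 0.999). The number of H3K4me1 peaks, treated over untreated, was 0.702 on X and 0.858 on the other chromosomes, and the treated length over the untreated one was 0.994 on X. What part this difference between the H3K4me1 lists has in the share on X was not tested.

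**Figure D5:**
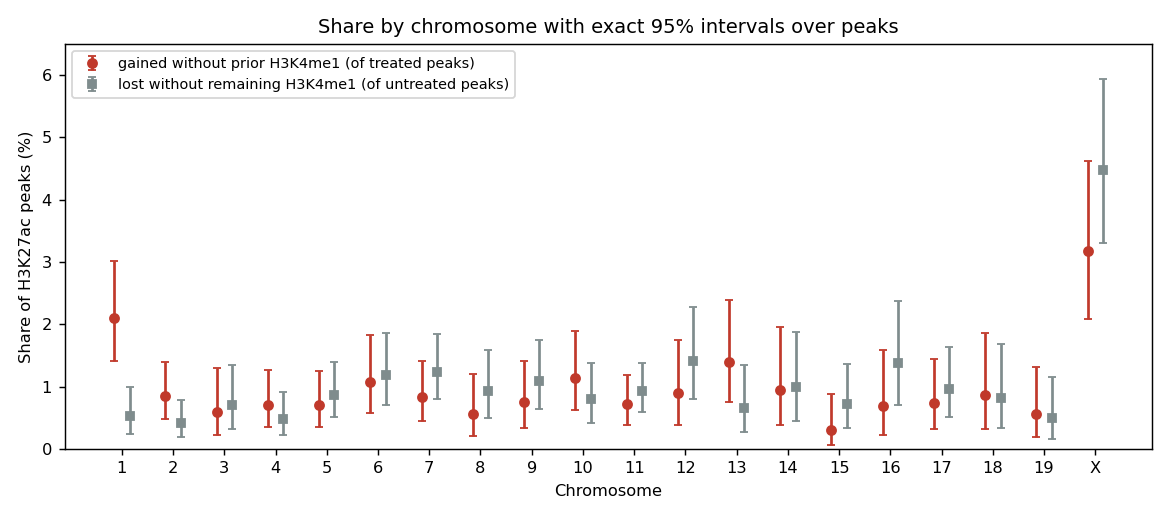
Share of H3K27ac peaks (%) on each chromosome that were gained without prior H3K4me1 (of the treated list) and lost without remaining H3K4me1 (of the untreated list), with exact 95% intervals over peaks; Y, with 1 treated peak, is left out. Both shares are highest on X, at 3.18% and 4.48%, and on chromosome 1 the gained share of 2.10% stands above the lost share of 0.528%.

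The X-linked peaks were less often near H3K4me1. Of the 26, 12 overlapped treated H3K4me1 (46.2%, 26.6 to 66.6), against 144 of 196 elsewhere (73.5%, 66.7 to 79.5), and the intervals do not overlap, by a narrow margin. Their nearest untreated H3K4me1 lay a median of 897 bp away on X and 397 bp elsewhere, and their nearest untreated H3K27ac 21022 bp and 2147 bp. A treated H3K27ac neighbour within 1 kb was found for 5 of the 26 (19.2%) and for 52.6% of the 196. When a peak had to have no untreated peak within 1 kb, 11 remained on X (1.34% of its treated peaks). Mid1, a ubiquitin ligase gene at the end of X, had 2 of them in its body and 1 at 26.2 kb, and Atg4a, an autophagy protease gene, 2, neither with treated H3K4me1. On chromosome 1, by contrast, 21 of 29 had treated H3K4me1 and the median gap to untreated H3K4me1 was 397 bp.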

How the data were processed

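ChIP-seq peak lists of H3K27ac and H3K4me1, treated and untreated, were used, 4 of the groups among 24 samples; groups were taken from sample titles, and the other samples were not analysed here. Reads were handled with bcl2fastq 2.17.1.14 and BWA on mm10, per the submitters' processing notes. Which peak caller made the lists, with which thresholds, and how replicates were combined is not given in the sources used here. Each deposited H3K27ac list holds positions and widths in bp. The deposited H3K4me1 lists give a score by the authors, used to rank peaks within a list, and a small value, not used, that is perhaps a p-value. Both ends of a peak were counted, after a check that the H3K27ac widths equal end minus start plus 1 in every line. Depth is unknown without read counts, and a list called more generously covers more bases.

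Overlap meant at least 1 bp. Overlaps, gaps and covered lengths were calculated in Python 3.11.15 (pandas 2.3.3, numpy 2.4.6, scipy 1.17.1), tested on simulated data with planted peaks, and checked against bedtools 2.31.1, which gave 222 and 156 for the chosen peaks and those with treated H3K4me1. Figures used matplotlib 3.10.9. Shares carry exact Clopper-Pearson 95% intervals. Gene positions came from the RefSeq table of GRCm38.p6 (the same assembly as mm10), without strand or exons, so both annotated ends of a gene were used. No genome sequence was used; the planned sequence features of the peaks were replaced by RefSeq promoter windows, which hold none on chromosome 18.

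The peaks and the gene lists were chosen with earlier results of these data known. Regions named were the 10 widest, the 5 under the highest treated H3K4me1 scores, the 10 widest within 1 kb of a gene end, the stretches with most peaks, those within 50 kb of a listed gene and those at the edge of the choice; the far, chromosome-wide and promoter cases were named after their values were seen. Of 494 listed symbols 493 matched the gene table, Emr1 being the exception.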

Additional observations from a re-analysis of the deposited data

Results flagged for a closer look

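On unplaced scaffolds, which the comparisons leave out, 1 treated H3K27ac peak also overlapped neither untreated list. It is given because it lies in data outside the main measurement, and nothing further was computed from it.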

How the results depend on the processing

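Of 33 values recomputed under the alternatives, 15 stayed close to those reported and 18 moved. The number of peaks, 222 as reported, was 53 with no untreated peak within 1 kb, 1 in the wider 50% of treated H3K27ac peaks, 380 when only the better 50% of H3K4me1 peaks by score counted, 102 with peaks within 1 kb merged, and 385 when an overlap had to cover 50% of the treated peak. The share with treated H3K4me1, 70.3% as reported, was 28.3% with no untreated peak within 1 kb, 100% in the wider 50% (1 peak), 48.0% after merging, 82.1% under the 50% overlap, and 61.7% where at least 50% of the peak had to be covered. The share within 1 kb of a gene end, 7.21% as reported, was 0% in the wider 50%, 13.5% under the 50% overlap and 19.4% with windows of 5 kb. The median width, 353 bp as reported, was 453 bp for peaks of at least 200 bp, 1553 bp in the wider 50%, 453 bp with the better 50% of H3K4me1 and 503 bp under the 50% overlap. The number of listed genes, 15 as reported, was 9 within 10 kb. The counts at 1 kb and after merging move by construction, since most of the peaks lie within 1 kb of untreated H3K4me1. The same holds for the number and width in the wider 50% and the median for peaks of at least 200 bp, where narrow peaks are left out. Fewer untreated H3K4me1 peaks or a stricter overlap can only raise the number of peaks. Another window or a stricter cover can move its own count or share in 1 direction only. The cause of the remaining moves was not tested.

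No paired analysis was possible because each H3K27ac list holds both replicates together and each H3K4me1 list 1 replicate, with no test to block; for the same reason leaving out a replicate was not run. Depth is unknown, and no list gives values below the authors' threshold.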
